A study of Caenorhabditis elegans with 4 samples.

Results

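Among 346 genes annotated as small nucleolar RNA (snoRNA) genes in the C. elegans assembly WBcel235 (ce11), 216 start inside the span of a protein-coding gene, their host, and the other 130 start outside every coding gene. The 216 hosted genes were described here by the peaks of a chromatin immunoprecipitation with sequencing (ChIP-seq) of the Y-box protein CEY-2. For each gene the peak with the highest signal was taken among those whose summit lay within 500 bp of the snoRNA start, in each of 5 peak lists, and its distance from the host's own start was recorded. The worms were L4 larvae, hermaphrodites of strain OP358, genotype unc-119(tm4063) III with the transgene wgIs358, which makes CEY-2 with a GFP-FLAG tag at its C-terminus. Whole animals were used and the chromatin was precipitated with an antibody against GFP, so a peak cannot be assigned to a tissue, and no untagged strain or other stage is among the samples. For the promoter that drives the transgene, and for whether endogenous cey-2 remains, nothing was stated in the labels used here. There were 4 libraries of 3 biological replicates, replicate 2 having 2 technical libraries that the authors merged. Nothing in the labels says how the worm cultures of the replicates were kept apart.

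snoRNAs are short noncoding RNAs of the nucleolus. Those of the box C/D class guide methylation of ribose in ribosomal RNA, and those of the box H/ACA class guide conversion of uridine to pseudouridine. Many animal snoRNAs lie in introns of host genes, often genes for ribosomal proteins, and are trimmed out of the spliced intron, while others have a promoter of their own. Genes for transfer RNA, another class of short RNA, are read by RNA polymerase III from a promoter inside the gene made of a box A and a box B. CEY-2 belongs to the Y-box proteins, which bind RNA through a cold-shock domain and in worms are best known from germline messenger RNA particles.

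The hosted snoRNA genes were spread over 188 hosts, of which 24 held at least 2. The host nol-56, a core protein of box C/D particles, held 4. The hosts rpl-6, a protein of the large ribosomal subunit, and top-2 held 3 each. Of the 216, 183 ran on the host's strand and 33 on the opposite strand, 169 lay in introns only and 47 overlapped an exon of a coding gene. Their median length was 127 bp. The distance from host start to snoRNA start ranged from 57 to 46394 bp with a median of 2040 bp, and 37 snoRNA genes lay within 500 bp of the host start, where a peak at the host promoter and a peak at the snoRNA fall in the same window.

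The authors' lists held 611 peaks that passed the irreproducible discovery rate (IDR) filter on the replicates and 25484 peaks called on the pooled replicates. For replicates 1, 2 and 3 they held 30000, 30000 and 21628 peaks. The authors named the pooled and replicate 2 lists as peaks and background, the input for IDR. An entry of these lists, called a peak here, can thus be a background region. The signal of a peak was set by the authors' caller relative to a control experiment (not analysed here), and it served only to rank peaks within a list. The depth of the libraries is unknown. Where 1 snoRNA gene lies near another, both can carry the same summit.

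In the IDR list 10 hosted snoRNA genes carried an IDR peak, at 9 distinct summits, which is 4.63% of 216 (exact 95% interval 2.24 to 8.35%). Over 31563 annotated genes of all kinds, piRNA genes left out, the share was 1.31%, and it was 0.996% over 19985 protein-coding genes and 1.14% over 3506 other noncoding RNA genes (biotype ncRNA) that also start inside a coding gene. The lower bound for hosted snoRNA genes was above all 3 of these shares, but below those of other small RNA genes inside coding genes, at 2.37% of 296 transfer RNA, 2.80% of 107 microRNA and 3.08% of 65 small nuclear RNA genes. Without the 28 hosted genes that carry GTTCNANNC, letters of a transfer RNA promoter, the share was 3.19% of 188 (1.18 to 6.82%), and its lower bound was below the 1.31% of all genes. That word was chosen after summit windows of these genes had been read, and 4 of the 28 had an IDR peak. The share without them is therefore a description only. Of the 130 snoRNA genes outside coding genes, 3 had an IDR peak, 2.31% (0.479 to 6.60%). The difference of hosted minus outside was 2.32 percentage points with a 95% Newcombe interval from -2.42 to 6.31, which includes 0.

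In the longer pooled list the order was the other way. A summit lay within 500 bp of 89 hosted snoRNA genes, 41.2% (34.6 to 48.1%), against 29.9% over all genes and 24.2% over hosted ncRNA genes. Outside coding genes 73 of 130 snoRNA genes had one, 56.2% (47.2 to 64.8%). Hosted minus outside was -14.95 percentage points (-25.35 to -4.08), an interval below 0. The pooled peaks at hosted genes were also lower in the list, with a median rank of 6978 and a median signal of 13.75, against rank 3424 and signal 18.2 outside. Hosted transfer RNA genes had pooled peaks more often than hosted snoRNA genes, 186 of 296 or 62.8% (57.1 to 68.4%), and the 2 intervals did not overlap. Hosted microRNA genes, at 32.7% of 107, and hosted small nuclear RNA genes, at 29.2% of 65, had intervals that overlapped that of the hosted snoRNA genes. Genes near each other share summits and are not replicates, so these intervals cover counting error only.

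**Figure D1:**
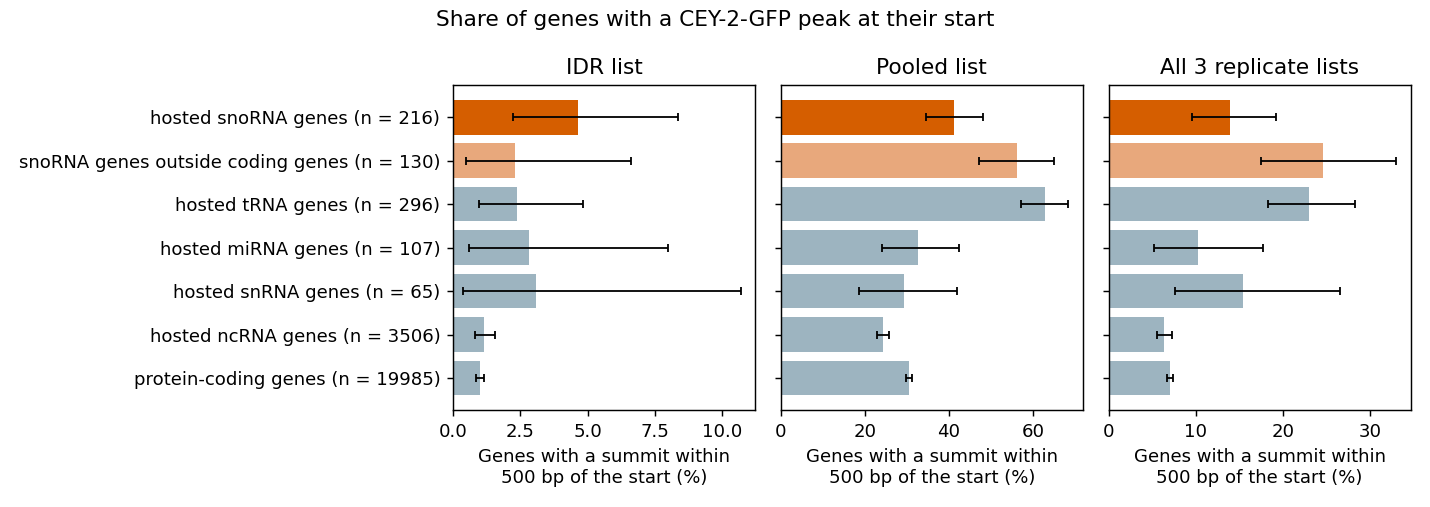
Share of genes with a summit within 500 bp of the start, in percent, in the IDR list, the pooled list and all 3 replicate lists at once, for snoRNA genes and comparison groups; error bars are exact 95% intervals. Hosted snoRNA genes are at 4.63%, 41.2% and 13.9%, and those outside coding genes at 2.31%, 56.2% and 24.6%.

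In all 3 replicates the hosted share was below the outside share, but against all genes the replicates differed. In replicate 1 a summit lay at 65 hosted snoRNA genes, 30.1%, against a background of 31.2% over all genes. In replicate 2 there were 105, 48.6%, against 33%, and in replicate 3 there were 80, 37.0%, against 24.7%. The hosted share of replicate 1 was thus at its background, while those of replicates 2 and 3 were above theirs. Outside coding genes the shares were 51.5%, 63.1% and 47.7%, higher than the hosted share in every replicate, and the interval of the difference excluded 0 in replicates 1 and 2 but reached 0.0327 percentage points in replicate 3. All 3 lists had a summit at 30 hosted genes, 13.9% (9.57 to 19.2%), against 7.73% over all genes and 24.6% outside. At 73 hosted genes no replicate list had a summit, 66 genes had a summit in 1 list and 47 in 2 lists.

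In the pooled list and in replicates 2 and 3, summits were more frequent at the snoRNA start itself than at starts of genes in general. At 36 of the 89 hosted genes with a pooled peak the summit lay within 100 bp of the start, or 16.7% of all 216 genes, against 7.74% of all genes. In replicates 2 and 3 the shares were 18.98% against 8.15% and 13.9% against 6.21%, but in replicate 1 they were 7.41% against 6.86%. The pooled share was 7.27% of protein-coding genes, 6.33% of hosted ncRNA genes, 1.87% of hosted microRNA genes, 35.5% of hosted transfer RNA genes and 26.9% of the snoRNA genes outside coding genes. The 100 bp just upstream of the start held a pooled summit at 25 hosted genes, 11.6%, against 2.31% in the 100 bp before it and 6.02% in each of the 2 bins after it. The bin just upstream was also the fullest of its neighbours in replicate 2, at 13.4%, and in replicate 3, at 8.33%, but in replicate 1 it held 6.02% against 6.48% in the bin from 100 to 200 bp downstream. The median pooled summit lay at -25 bp (quartiles -202 and 106 bp; negative is upstream). The summit fell inside the snoRNA gene at 16 of the 89 hosted genes and at 17 of the 73 outside.

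**Figure D2:**
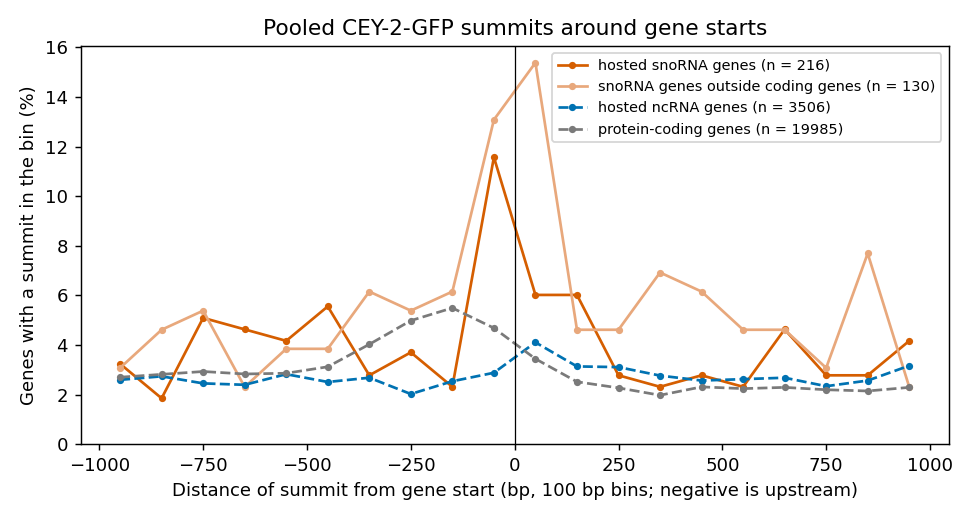
Genes with a pooled summit in each 100 bp bin from 1000 bp upstream to 1000 bp downstream of the gene start, in percent of the group. Hosted snoRNA genes reach 11.6% in the bin just upstream of the start and those outside coding genes 15.4% in the bin just downstream, while hosted ncRNA genes and protein-coding genes stay below 6%.

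The highest of the hosted snoRNA genes was C04A2.16 (WBGene00219797, chrII:6843240-6843363, plus strand), in an intron of egl-27, a chromatin protein related to human MTA1. Its IDR peak had a signal of 101.1, rank 32 in the pooled list, and the best peaks of replicates 1, 2 and 3 had signals of 39.07, 64.85 and 25.32 with ranks 32, 27 and 36. It was the highest hosted snoRNA gene in each replicate. The summit was not at the snoRNA, however, but 372 bp upstream of it, 464 bp from the nearest start of an egl-27 transcript. The start of the egl-27 gene is 8232 bp from the snoRNA.

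T03F7.8 (WBGene00045071, chrV:11314258-11314332), 75 bp long, lies on the opposite strand in an intron of the cuticlin-like gene cutl-18, 2643 bp from its start. The pooled signal was 69.75, rank 79, and the replicates gave 17.45, 38.08 and 18.1 with ranks 373, 63 and 78. The pooled summit was 9 bp into the snoRNA and 2634 bp from any start of the host. A further noncoding gene, T03F7.14, also starts within 500 bp of this summit. The replicate summits lay at -70, 9 and 34 bp.

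D1046.6 (WBGene00045136, chrIV:8927265-8927393), in cfim-2, which encodes a subunit of the pre-mRNA cleavage factor, had signal 49.4 and rank 240, and 16.35, 21.78 and 10.55 in the replicates with ranks 488, 384 and 471. The summits of the replicates lay at -6, -53 and -43 bp, within 47 bp of each other. The IDR summit was also 246 bp from the nearest start of a cfim-2 transcript. An annotated pseudogene and a further noncoding gene, D1046.11, start within 500 bp of it. Only C04A2.16, T03F7.8 and D1046.6 ranked among the first 611 peaks of all 3 replicate lists.

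C51F7.3 (WBGene00014290, chrV:12303708-12303783) and C51F7.4 (WBGene00219860, chrV:12303599-12303693) lie head to tail in frm-7, a FERM domain gene, and share 1 summit, 97 bp upstream of the former and 12 bp into the latter. The signal was 43.2, rank 351. Replicates 2 and 3 had it at 32.7 and 11.8, ranks 105 and 335, but the best peak of replicate 1 had a signal of 4.49 and rank 23706 and its summit was 219 bp from the start of C51F7.4.

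The windows around these summits are shown because they place the summit, which is base 101 of each 201 bases, against the snoRNA. They are from the ce11 reference, plus strand, 5′ to 3′, at chrV:11314167-11314367, chrIV:8927134-8927334 and chrV:12303511-12303711, with the bases of the snoRNA T03F7.8, D1046.6 or C51F7.4 in capitals.
T03F7.8: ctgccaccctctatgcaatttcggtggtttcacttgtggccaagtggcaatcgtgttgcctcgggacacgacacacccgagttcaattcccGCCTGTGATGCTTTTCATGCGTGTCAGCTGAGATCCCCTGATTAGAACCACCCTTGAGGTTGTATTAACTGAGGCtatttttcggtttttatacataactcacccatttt
D1046.6: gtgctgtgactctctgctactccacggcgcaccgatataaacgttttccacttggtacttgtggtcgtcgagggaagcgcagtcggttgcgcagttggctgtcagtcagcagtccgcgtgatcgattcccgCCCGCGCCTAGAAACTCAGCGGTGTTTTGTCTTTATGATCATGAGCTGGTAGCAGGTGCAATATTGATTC
C51F7.4: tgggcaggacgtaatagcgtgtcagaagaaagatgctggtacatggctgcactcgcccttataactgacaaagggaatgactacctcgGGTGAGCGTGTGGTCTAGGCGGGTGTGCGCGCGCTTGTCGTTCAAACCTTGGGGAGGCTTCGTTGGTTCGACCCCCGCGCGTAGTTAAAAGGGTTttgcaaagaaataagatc
In each window the snoRNA begins within 31 bases of the middle. The window at C04A2.16, chrII:6842768-6842968, holds no base of the snoRNA, and its capitals mark TGATAA, the letters bound by GATA factors, on either strand.
C04A2.16: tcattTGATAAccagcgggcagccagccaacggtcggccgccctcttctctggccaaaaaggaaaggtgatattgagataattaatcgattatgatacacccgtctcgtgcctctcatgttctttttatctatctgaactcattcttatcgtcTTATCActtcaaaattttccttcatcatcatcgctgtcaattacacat

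K02F3.15 (WBGene00220001, chrIII:833435-833609), in the bZIP transcription factor gene zip-2, had signal 62.8 and rank 106. Replicates 1, 2 and 3 gave 13.3, 43.3 and 13.2 with ranks 1077, 45 and 230. The summit lay 361 bp from the snoRNA start, beyond its end, in the pooled list, and at 366 and 378 bp in replicates 1 and 2. The pooled summit was 292 bp from the nearest start of a zip-2 transcript. In replicate 3 the best summit lay at -435 bp, 18 bp from the start of zip-2, so the best peaks of the replicates were at different places. Only the best peak per list was taken, so a lower replicate 3 summit elsewhere in the window is not excluded.

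B0334.12 (WBGene00007539, chrII:11484683-11484752), opposite to the potassium channel gene twk-5, had signal 45.55 and rank 308, with the summit 153 bp from the snoRNA start and 464 bp from the host start. The replicates gave 6.79, 27.3 and 10.1 with ranks 10384, 185 and 530, and the summit of replicate 1 lay 441 bp from that of replicate 3. F54E7.10 (WBGene00044941, chrIII:5679378-5679509), in rps-12, a protein of the small ribosomal subunit, had signal 41.5 and rank 399. Its summit lay upstream of both genes, 198 bp before the snoRNA and 118 bp before rps-12, and the start of ska-3 is also within 500 bp. The replicates gave 10.48, 22.74 and 10.35 with ranks 2657, 335 and 492.

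The remaining members with an IDR peak were both on chromosome I. ZK484.9 (WBGene00044933, chrI:6082738-6082805), opposite to the half-transporter gene haf-9, had signal 49.1, rank 244 and its summit 6 bp before the snoRNA start. A further noncoding gene, ZK484.10, also starts within 500 bp of this summit. The replicate signals were 13.45, 19.72 and 5.28, ranks 1021, 532 and 3627, with summits within 47 bp. F39B2.14 (WBGene00219940, chrI:14759178-14759412), in tmem-107, whose product belongs to the transition zone of cilia, had signal 36.65, rank 578 and its summit on the first base. Its replicate signals were 12.6, 20.43 and 3.695, ranks 1336, 471 and 8523. The host start is 61 bp away.

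Across these 10 genes the replicate that was weakest by rank was most often replicate 1. Its best peak was below rank 611 at 7 of the 10, replicate 3 at 2, and replicate 2 at 0. Of the 10, 5 were in the first 611 of 2 lists and 2 in that of 1 list. The summit was within 100 bp of the snoRNA start at 6 and inside the snoRNA at 3. Just outside the IDR list, by pooled signal, came T04A8.17 in ppat-1 at 32.2, rank 801, F07A11.15 in the corepressor gene din-1 at 30.7, rank 912, M106.6 in the condensin gene mix-1 at 30.5, rank 932, R166.7 in the kinase gene mnk-1 at 28.51, rank 1109, and C07A9.14 in the exchanger gene ncx-7 at 27.5, rank 1238. T04A8.17, F07A11.15, M106.6 and C07A9.14 had their pooled summits between -22 and 12 bp of the snoRNA start, and R166.7 at -141 bp. T04A8.17 was the third of the hosted genes in replicate 3, with signal 15.2 and rank 139, yet replicate 1 had no summit there. The 3 outside genes with an IDR peak were F17C11.24 at 46.2, F37A8.7 at 39.6 and W06H8.17 at 36.1, none with a summit within 100 bp of its start.

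**Figure D3:**
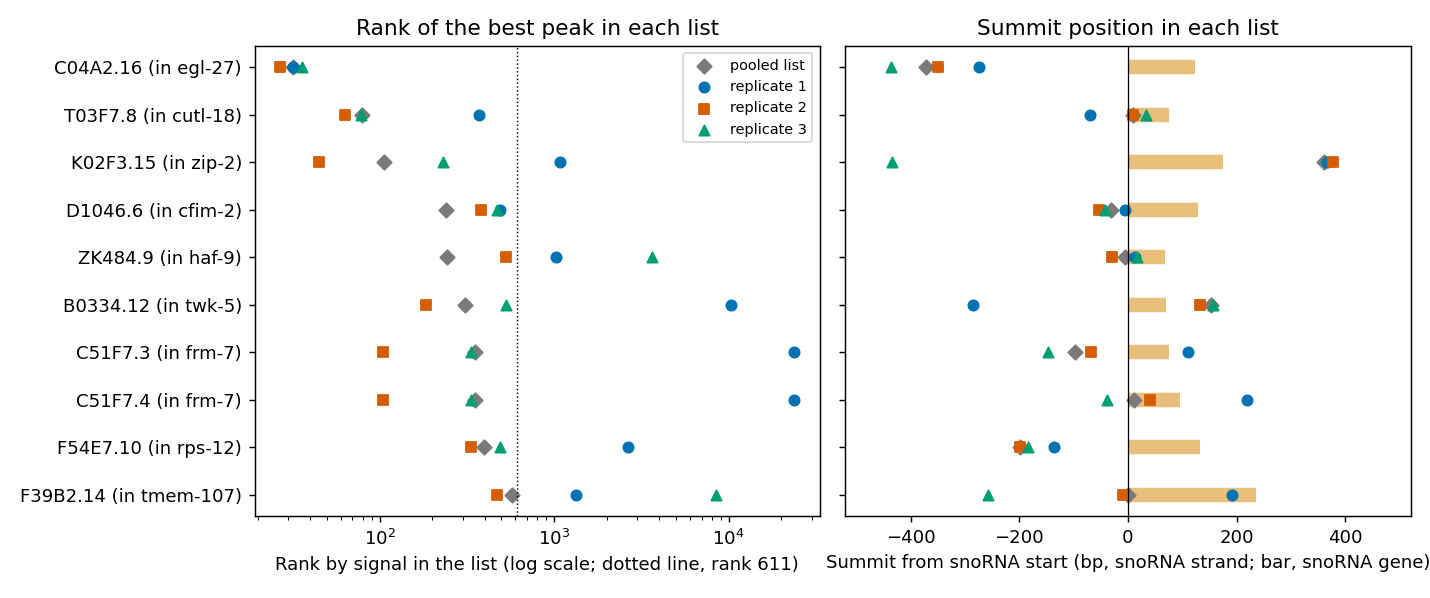
The 10 hosted snoRNA genes with an IDR peak, host in brackets. Left, rank of the best peak in the pooled list and each replicate list on a log scale, with a dotted line at rank 611; right, summit position in bp from the snoRNA start on the snoRNA strand, with the snoRNA gene as a bar. C04A2.16 ranks 27 to 36 in the replicates with summits far upstream, while T03F7.8, D1046.6 and ZK484.9 have their summits close to the start.

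Some peaks at hosted snoRNA genes were also peaks of the host start. Of the 89 hosted genes with a pooled peak, 63 lie over 1000 bp from the host start, where the windows cannot share a summit. Of the other 26, 18 had their pooled summit within 500 bp of the start of the host gene. Counting every annotated transcript start of the host raised the 18 to 28 of the 89. For the IDR peak the count was 3 of 10 genes, B0334.12, F54E7.10 and F39B2.14, and 6 of 10 with every transcript start. Those added were C04A2.16, K02F3.15 and D1046.6. The pooled share by distance of the snoRNA from the host start was 45.9% of 37 genes up to 500 bp, 35.7% of 70 from 500 to 2000 bp, 48.9% of 47 from 2000 to 5000 bp and 38.7% of 62 beyond, with no order along the host and with intervals that overlapped. Summits within 100 bp of the snoRNA start were at 10.8%, 14.3%, 21.3% and 19.4% of the genes in these classes. IDR peaks were at 3, 5, 1 and 1 gene, or 8.11%, 7.14%, 2.13% and 1.61%, against 1.31% of all genes. The lower bounds up to 500 bp and from 500 to 2000 bp, 1.70% and 2.36%, were above that background. Farther from the host start the intervals included it. The intervals of all these classes overlapped. By strand the pooled share was 39.3% of 183 on the host's strand and 51.5% of 33 on the opposite strand, and the IDR counts were 7 and 3.

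**Figure D4:**
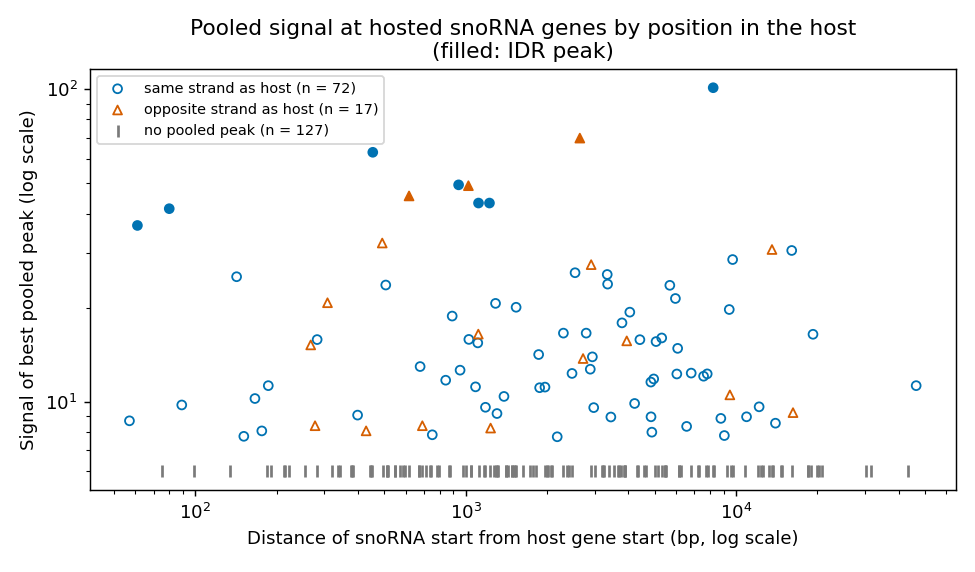
Signal of the best pooled peak at each hosted snoRNA gene against the distance of the snoRNA start from the host gene start, both on log scales, with circles for the host's strand, triangles for the opposite strand, filled where there is an IDR peak, and ticks at the bottom for the 127 genes without a pooled peak. Peaks and ticks occur at all distances, and the highest signal, 101.1, is 8232 bp from the host start.

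The hosts themselves had a pooled peak at their own start at 85 of 188, 45.2% (38.0 to 52.6%), against 30.4% of protein-coding genes, and an IDR peak at 9, 4.79%. The highest of these were cdc-48.1, an AAA ATPase, at 107.5, rpl-15 of the large ribosomal subunit at 95.9 and iff-2, a translation factor, at 67.1. None of the snoRNA genes in those 3 hosts had an IDR peak of its own within 500 bp, and 3 of the 9, twk-5, rps-12 and tmem-107, were hosts of a snoRNA gene with one, which was the same summit. Among the 150 snoRNA genes over 1000 bp from the host start, a pooled peak was at 31 of the 60 whose host also had one at its start, 51.7% (38.4 to 64.8%), and at 32 of the 90 whose host had none, 35.6% (25.7 to 46.4%). These intervals overlap.

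Hosts were sorted by kind from the prefix of the gene symbol alone. The 13 hosts with symbols of ribosomal proteins held 19 snoRNA genes. Of these 1 had an IDR peak and 7 a pooled peak, none within 100 bp of the snoRNA start. The 3 hosts with symbols of translation factors held 5 snoRNA genes, with 1 pooled peak, at Y65B4A.11 in eif-4A3. The other 172 hosts held 192, with 9 IDR and 81 pooled peaks, 36 of them within 100 bp. A mixed list of 25 genes, matched by name, of the snoRNA particles, nucleolus and RNA polymerase I was described at their own starts. None had an IDR peak, against 1.31% of all genes, which allows a share of up to 13.7% (exact 95% upper bound). A pooled peak was at 11, 44% (24.4 to 65.1%), an interval that includes the 29.9% of all genes. The highest were pro-1 at 27.2, the helicase subunit ruvb-1 at 26.3 and nol-56 at 25.1. The fibrillarin gene fib-1, the methyltransferase of box C/D particles, had none.

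The class boxes of the snoRNAs were searched as letters, on the snoRNA strand. TGATGA, the box C core, stood in the first 20 bases of 12 hosted genes, CTGA, the box D core, in the last 20 bases of 51, both in 9, and ACA before the final 3 bases, the H/ACA end, in 48, or 22.2% against 7.69% outside. The shares for TGATGA and CTGA were 5.56% and 23.6% of hosted and 6.15% and 23.1% of outside genes. Of the 89 hosted genes with a pooled peak 2 had both C and D letters and 16 the ACA end, 18.0%. At 120 hosted genes none of the 3 patterns matched, so the class of most members was not assigned here. Among the 10 genes with an IDR peak, C51F7.3 had both C and D letters, and D1046.6 and F54E7.10 the ACA end. The first and last of these are printed with the matched letters in capitals, and for the ACA end with the 3 bases after it.
C51F7.3: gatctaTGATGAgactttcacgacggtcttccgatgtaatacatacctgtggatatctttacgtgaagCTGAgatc
F54E7.10: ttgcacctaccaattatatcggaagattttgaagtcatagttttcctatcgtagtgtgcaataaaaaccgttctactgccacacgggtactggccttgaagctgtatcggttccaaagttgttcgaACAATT

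Several summit windows held letters like those of the box B of transfer RNA genes, and the word GTTCNANNC was then searched around all starts, a choice made after those windows had been read. On the strand of the gene, from 150 bp before the start to 50 bp after it, 28 of 216 hosted snoRNA genes had the word, 13.0%, as did 17 of 130 outside, 13.1%. It was in 3.28% of hosted ncRNA genes, 3.20% of protein-coding genes and 3.42% of all genes in the same window, and in 91.5% of 634 transfer RNA genes within their first 100 bp. On either strand 30 of the 216 hosted genes had it, as did 23 of 130 outside. There it was at 365 of 3506 hosted ncRNA genes, 1116 of 19985 protein-coding genes and 2229 of 31563 genes of all kinds. The hosted snoRNA genes thus stood closer to hosted ncRNA genes than on the gene's strand alone. The word was not scattered over the window: its first base lay between 40 bp and 1 bp before the snoRNA start at 18 of the 28 hosted and 16 of the 17 outside genes, with medians of -14 and -12 bp. No annotated transfer RNA gene starts within 500 bp of any of the 216.

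Sequences are shown to place the word against the snoRNA start, for the 6 genes of highest pooled signal among the hosted genes whose word starts in the 60 bp before it and which lie on another chromosome than ZK484.9. They are lined up from 60 bases before the snoRNA start to 20 bases into it, in ce11, 5′ to 3′ on the snoRNA strand, with GTTCNANNC in capitals. They lie at chrV:11314198-11314277, chrV:12303648-12303727, chrII:10840257-10840336, chrII:10545310-10545389 (minus strand), chrIV:12086649-12086728 and chrIV:2408616-2408695 (minus strand).
T03F7.8: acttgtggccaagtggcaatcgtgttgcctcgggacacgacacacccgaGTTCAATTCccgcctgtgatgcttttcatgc
C51F7.3: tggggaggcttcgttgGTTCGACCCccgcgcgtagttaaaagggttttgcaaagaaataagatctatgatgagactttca
M106.6: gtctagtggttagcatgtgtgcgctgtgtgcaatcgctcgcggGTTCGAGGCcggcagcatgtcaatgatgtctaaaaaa
R166.7: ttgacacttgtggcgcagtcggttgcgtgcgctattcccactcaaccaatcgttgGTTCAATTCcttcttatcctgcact
F11A10.9: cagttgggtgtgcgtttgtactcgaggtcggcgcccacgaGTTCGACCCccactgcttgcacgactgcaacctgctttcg
Y38F2AR.14: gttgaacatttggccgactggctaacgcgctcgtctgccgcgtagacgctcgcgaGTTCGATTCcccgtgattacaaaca
These genes lie in cutl-18, frm-7, mix-1, mnk-1, rbm-34 and Y38F2AR.12, in this order. For C51F7.3 the printed word lies within the annotated C51F7.4, a gene that has the word only after its own start and is not lined up.

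Of the 28 hosted genes with the word 15 had a pooled peak, 53.6% (33.9 to 72.5%), and 9 had its summit within 100 bp, 32.1%. Of the 188 without it 74 had a pooled peak, 39.4% (32.3 to 46.7%), and 27 a summit within 100 bp, 14.4%. The IDR peak was present at 4 of the 28 and 6 of the 188. Those 4, T03F7.8, ZK484.9, C51F7.4 and C51F7.3, stand at 3 summits. The median rank of the pooled peaks was 3570 with the word and 8900.5 without. Outside coding genes 13 of 17 genes with the word had a pooled peak, 76.5%, and 60 of 113 without it, 53.1%, but none of the 17 had an IDR peak. The intervals for pooled peaks overlap in both groups, and since the word was chosen from summit windows of these genes the counts are given as a description, with no test. The control was not analysed here, and whether worms without the tagged protein have peaks at the same genes was not tested. At 13 of the 28 hosted genes with the word there was no pooled peak, and at 6 of those no replicate list had a summit either.

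**Figure D5:**
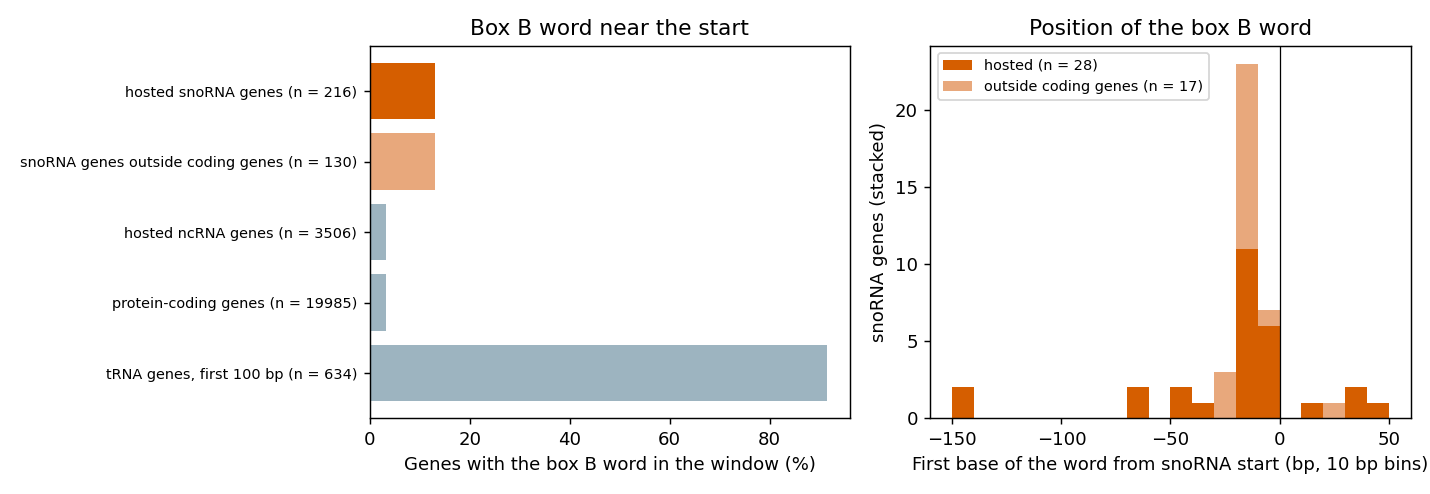
Left, share of genes in percent with the word GTTCNANNC from 150 bp before to 50 bp after the start, on the gene's strand, and for transfer RNA genes in the first 100 bp; right, position of the word's first base relative to the snoRNA start in 10 bp bins, hosted and outside genes stacked. Hosted and outside snoRNA genes are at 13.0% and 13.1% against 3.20% of protein-coding genes, and most words start within 40 bp upstream of the snoRNA.

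Within 100 bp of a summit and on both strands, the word GTTCNANNC was at 4 of the 9 IDR summits of hosted snoRNA genes, against 7.85% of the 586 IDR summits on the nuclear chromosomes, and at 16 of the 86 distinct pooled summits, 18.6%, against 7.53% of 25458. Since this word was chosen from summit windows of these genes, its counts there describe the choice and give no independent evidence. Of 3 further words, taken from earlier results of these data, GAGAGA was at 0 of 9 against 42.8% of the 586, TGATAA at 1, C04A2.16, against 41.3%, and CACGTG, the E-box, at 1, ZK484.9, against 19.8%. At the 86 pooled summits the shares were 16.3%, 15.1% and 4.65%, against 15.0%, 24.1% and 4.30% of all pooled summits. Because these 3 words were taken from the same data, their shares over all summits can reflect that choice and are no neutral background. The median GC content of the 201 bp windows was 46.3% at the 9 and 39.8% at all IDR summits, and 40.3% and 33.8% in the pooled list. A word match is a description of the letters and does not show which protein was bound.

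The replicate summits at a hosted snoRNA gene were often far apart. Over the 30 genes with a summit in all 3 lists the range of the 3 positions had a median of 258 bp, from 47 to 813 bp, and at 5 genes it was within 100 bp. At the 32 outside genes with all 3 it was 299 bp. By chromosome, pooled peaks were at 20 of 43 hosted genes on II, 13 of 44 on III, 16 of 36 on IV, 17 of 39 on V, 19 of 44 on I and 4 of 10 on X, and the X chromosome had no IDR peak at a hosted snoRNA gene.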

How the data were processed

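The files analysed were narrowPeak lists in build ce11: 3 for single replicates, 1 for pooled replicates and 1 of peaks that passed IDR. The signal values were made by the authors' peak caller against a control and deposited per peak. They are comparable within 1 list only. Which caller and aligner made them is not given in the sources used here. Lists in ce10 were not used. A summit is the deposited interval start plus the deposited offset, written 1-based. Genes came from Ensembl release 115 and sequence from the RefSeq copy of WBcel235, with matching chromosome lengths. A snoRNA gene's host is the coding gene whose span holds its start, the same strand first, then the shortest. Shares have exact (Clopper-Pearson) 95% intervals, and differences of shares Newcombe intervals (scipy 1.17.1, statsmodels 0.14.6, pandas 2.3.3). Read counts were not used here, so depth is unknown. The window search was run on simulated summits planted inside the 500 bp window at genes drawn from the 216. It found 800 of 800 planted peaks, 794 of them at the planted distance. The planted signals were above those of all decoy peaks, so finding them was built in. This run checks the code only, not how weak peaks of the real lists are found. The named genes are the hosted snoRNA genes with an IDR peak, the next 5 by pooled signal, the 3 highest per replicate, their hosts, and outside snoRNA genes with an IDR peak. The members and lists were chosen with earlier results of these data known. Alternatives changed the window, the host rule, the strand, the list and the replicates.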

Additional observations from a re-analysis of the deposited data

How the results depend on the processing

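Of 57 alternative settings 16 moved a result past its limit, which was 1.5 times for a count, the 95% interval for the share difference, the SD of the replicate medians for the summit distance and the interquartile range for the summit range. The 10 genes with an IDR peak became 3 with hosts on the opposite strand alone, 5 with IDR peaks of at least median signal, 3 with the first 611 peaks of replicate 1 in place of the IDR list, and 6 without genes carrying GTTCNANNC, the last chosen after seeing the data. The hosted minus outside share of 2.32 percentage points became 6.52 with opposite-strand hosts. Within its interval it fell to 0.620 with the first 611 peaks of replicate 1 and changed sign with a 1000 bp window, -0.748, and with the first 611 peaks of replicate 3, -1.06. With opposite-strand hosts the pooled count fell from 89 to 17, since 34 genes remain, the 33 and 1 gene that also has a host on its own strand. The 30 genes in all 3 replicate lists became 16 with a 250 bp window, 67 with a 1000 bp window, 5 with opposite-strand hosts and 3 with only the first 611 peaks of each list. Leaving out a replicate gave 60 without replicate 1, 32 without replicate 2 and 45 without replicate 3. With fewer lists that must hold a summit the count cannot fall, and it rose most without replicate 1. The median summit distance of -25 bp was -66 bp in replicate 1. The count of 3 IDR summits at a host start became 5 within 1000 bp and 6 with any transcript start, and for pooled summits the 18 became 28 with any transcript start, chosen after seeing the data. The 258 bp range of replicate summits became 119.5 bp in a 250 bp window, which bounds it. No paired analysis was possible because the series holds 1 group. The unknown depth limits every statement on genes without a peak. The control was not analysed, so whether a peak depends on the tagged protein was not tested, which limits every statement on genes with a peak.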
